A study of Homo sapiens with 9 samples.

Results

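Human chromosome 19 carries the densest set of zinc finger genes in the genome, and 225 of them were measured in this series. The members were taken by position, symbol and a minimum of counts: a member was annotated as protein-coding on chromosome 19, had a symbol made of ZNF and a number, and reached at least 10 counts in 3 or more of the 9 libraries. The annotation held 240 such genes, all 240 had a row in the count tables, and 15 did not reach the count minimum; the tables held 58395 gene identifiers in all. The libraries came from the breast cancer line MDA-MB-231, which lacks hormone receptors, 96 h after reverse transfection. The siNC group received a nontargeting siRNA, and the siZIP7_1 and siZIP7_2 groups each received 1 of 2 separate siRNAs against ZIP7, the zinc transporter of the endoplasmic reticulum encoded by SLC39A7. Each group had 3 libraries, every group was transfected, and no untransfected cells were analysed here. Nothing in the labels says whether the 3 libraries of a group came from separate cultures, so the p-values measure the spread between these libraries, which may be technical. The comparisons ask how these genes stood in each ZIP7 knockdown against the control, and whether they stood alike with both siRNAs.

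Most ZNF genes of chromosome 19 encode DNA-binding proteins with a row of C2H2 fingers, in which a pair of cysteines and a pair of histidines hold 1 zinc ion. Many also carry a KRAB box at the front of the protein, which binds TRIM28 and through it brings in histone methylation and heterochromatin proteins; a large share of these factors hold retrotransposons silent. The genes arose by repeated local duplication, and neighbours in a cluster often remain alike in sequence.

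In the translated transcripts of the annotation, 191 of the 225 members had a KRAB A-box pattern, and the members had a median of 12 fingers, from 0 to 36. The finger unit is shown for 3 members whose counts moved in different ways below, each from 1 exon of the GENCODE 29 transcripts on GRCh38. It runs from the first cysteine codon to a fixed number of codons after the second histidine. Whether those last codons form a linker to a next finger was not checked. Capitals mark the codons of the 2 cysteines and 2 histidines that hold the zinc.
ZNF91, finger 16 of 31, chr19:23360834-23360917, minus strand: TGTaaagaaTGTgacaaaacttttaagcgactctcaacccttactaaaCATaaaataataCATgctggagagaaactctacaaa
ZNF114, finger 2 of 3, chr19:48286624-48286707, plus strand: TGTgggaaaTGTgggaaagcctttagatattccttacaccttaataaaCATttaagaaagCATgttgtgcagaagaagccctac
ZNF865, finger 11 of 20, chr19:55615713-55615796, plus strand: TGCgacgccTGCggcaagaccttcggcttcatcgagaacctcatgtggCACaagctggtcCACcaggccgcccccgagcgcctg
The ZNF91 and ZNF114 fingers are rich in A and T, and the ZNF865 finger in G and C. The GC content of the longest transcript of each gene was 37.0%, 48.1% and 71.1% in the order ZNF91, ZNF114 and ZNF865.

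Promoters were taken from the RefSeq table of GRCh38.p14, in which 198 of the 225 members had an entry. They are the 250 bases before the start of transcription set there, which can differ from the gene start in GENCODE 29. The printed stretches of ZNF91, ZNF737, ZNF93 and ZNF865 reach into the gene as GENCODE 29 places it, and that of ZNF865 lies mostly inside it. Of 209 ZNF promoters checked, the bases after the stretch matched a GENCODE 29 transcript of the gene in 178. The 15-base word TCTTCTGTCACTCAG was the one held by most member promoters: 16 of 198 had it, against 17 of 35116 promoters in the whole table, and 14 of the 16 lay among the 29 members with an entry in the cluster next to the centromere on the short arm. The promoters of 4 of these genes are printed with the word in capitals, because the genes share it but differed in their counts.
ZNF91, chr19:23395472-23395721, minus strand: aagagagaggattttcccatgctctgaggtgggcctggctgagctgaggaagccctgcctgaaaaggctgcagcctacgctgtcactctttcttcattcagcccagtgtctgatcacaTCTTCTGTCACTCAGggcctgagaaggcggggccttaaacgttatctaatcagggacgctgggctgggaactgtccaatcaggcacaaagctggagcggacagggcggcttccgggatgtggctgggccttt
ZNF737, chr19:20565782-20566031, minus strand: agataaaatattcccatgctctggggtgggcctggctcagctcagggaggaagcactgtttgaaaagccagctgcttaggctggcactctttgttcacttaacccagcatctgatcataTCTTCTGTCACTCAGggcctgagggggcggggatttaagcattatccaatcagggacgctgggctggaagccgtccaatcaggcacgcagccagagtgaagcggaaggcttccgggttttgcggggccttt
ZNF93, chr19:19900696-19900945, plus strand: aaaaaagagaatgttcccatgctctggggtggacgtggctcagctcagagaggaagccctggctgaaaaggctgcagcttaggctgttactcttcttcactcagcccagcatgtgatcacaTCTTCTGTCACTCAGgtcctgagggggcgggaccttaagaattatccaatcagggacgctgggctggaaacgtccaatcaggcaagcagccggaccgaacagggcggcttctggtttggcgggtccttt
ZNF726, chr19:23914636-23914885, plus strand: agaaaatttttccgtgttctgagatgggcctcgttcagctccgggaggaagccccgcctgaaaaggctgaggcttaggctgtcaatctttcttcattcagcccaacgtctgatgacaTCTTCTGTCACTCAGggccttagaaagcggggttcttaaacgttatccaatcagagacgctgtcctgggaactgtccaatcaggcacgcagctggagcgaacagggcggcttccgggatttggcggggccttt
The promoter of ZNF865 is shown beside them as one of the other kind, with each CpG dinucleotide in capitals. It held 32 CpG, against a median of 16 over member promoters and 11 over all promoters in the table.
ZNF865, chr19:55605397-55605646, plus strand: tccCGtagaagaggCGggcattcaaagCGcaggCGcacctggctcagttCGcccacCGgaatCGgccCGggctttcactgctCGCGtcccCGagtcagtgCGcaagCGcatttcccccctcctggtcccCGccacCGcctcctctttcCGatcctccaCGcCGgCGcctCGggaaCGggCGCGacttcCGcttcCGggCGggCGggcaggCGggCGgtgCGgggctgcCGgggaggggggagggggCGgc

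The 9 libraries held 24153785 to 30454419 reads counted on genes, so that 3 counts corresponded to 0.0941 to 0.129 CPM (counts per 1e6 reads on genes, with library sizes scaled by TMM). Reads on no annotated gene took 7.43% to 8.28% of the reads in siNC, 7.80% to 9.62% in siZIP7_1 and 9.99% to 11.5% in siZIP7_2. SLC39A7, the targeted gene, was at 321 to 343 CPM in siNC, 32.9 to 38.6 in siZIP7_1 and 17.6 to 20.5 in siZIP7_2, and thus low in all 6 knockdown libraries. VIM, CD44, KRT8 and KRT18 were expressed in all groups but moved with them, by -1.04, -0.81, 1.29 and 0.59 on the log2 scale with siZIP7_1 and by -0.93, 1.14, -0.15 and -0.39 with siZIP7_2, the hormone receptor genes ESR1 and PGR averaged 0.0887 to 0.501 and at most 0.0452 CPM, while ERBB2 averaged 59.3 to 88.0 CPM. Of the markers of other cells, DCN was at or under 0.0504 CPM and PTPRC at or under 0.875 CPM on average, and PECAM1 averaged 3.02, 0.102 and 8.63 CPM in siNC, siZIP7_1 and siZIP7_2.

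As a family, the ZNF genes of chromosome 19 stood higher than in siNC with siZIP7_2 and, by less, with siZIP7_1. Summed over the 225 members, they took 0.295% ± 0.0108 of all gene counts in siNC (mean ± SD, n = 3), 0.330% ± 0.00973 in siZIP7_1 and 0.397% ± 0.0111 in siZIP7_2. The libraries of the groups did not overlap in this share, with 0.283% to 0.302% in siNC, 0.319% to 0.337% in siZIP7_1 and 0.385% to 0.408% in siZIP7_2. The share was taken without TMM scaling. With it, the summed levels were 3035 ± 89.1 CPM in siNC, 3193 ± 49.6 in siZIP7_1 and 3991 ± 80.9 in siZIP7_2 (SD, n = 3), a smaller step between siNC and siZIP7_1. The highest siNC library then stood at 3092 CPM and the lowest siZIP7_1 library at 3137. The median member lay 0.091, 0.174 and 0.175 above the siNC mean in the siZIP7_1 libraries on the log2(CPM + 0.5) scale, and 0.434, 0.445 and 0.484 above it in the siZIP7_2 libraries. The siNC libraries lay at -0.060, 0.027 and 0.036, the lowest being replicate 2, which also had the fewest counts. In bulk RNA a change in the RNA of each cell cannot be told apart from a change in the mix of cells, and the part of the marker changes above in this result was not tested.

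**Figure D1:**
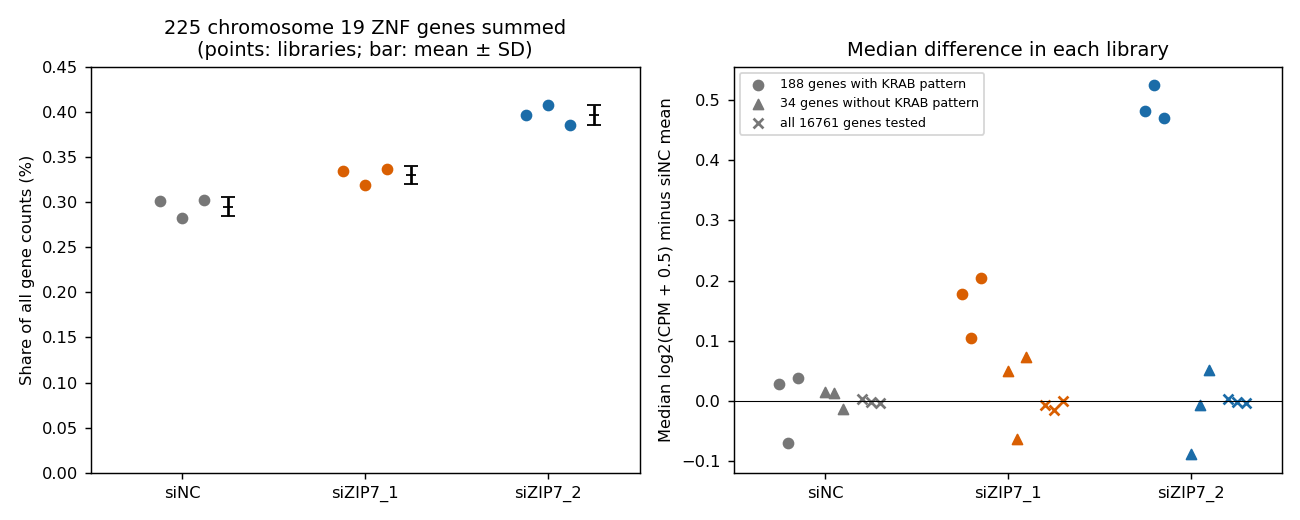
The left panel plots the share of all gene counts (percent) taken by the 225 members in each library, with the mean ± SD of each group, and the right panel plots the median log2(CPM + 0.5) minus the siNC mean in each library for the genes with a KRAB pattern, those without it and all genes tested. The share rises from 0.295% to 0.330% and 0.397% between groups, and in siZIP7_2 the circles of the KRAB genes lie between 0.470 and 0.524 while those of the other 2 sets stay near 0.

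Of the 225 members, 222 passed edgeR's filter on low counts and were tested with 16761 genes in all. ZNF99, ZNF135 and ZNF610 did not pass. The 225 include 6 that reached 10 counts in no siNC library. For siZIP7_1 and for siZIP7_2 that number was 1 each. The count rule itself favours higher values in the knockdown groups for those 6, and the ones tested are part of the counts and medians below. With siZIP7_1, 92 of the 222 members were higher than in siNC and 46 lower at a Benjamini-Hochberg adjusted p under 0.05 in edgeR's quasi-likelihood test, or 41.4% and 20.7%, where 34.8% of all genes were higher and 35.9% lower. With siZIP7_2, 148 were higher and 31 lower, or 66.7% and 13.96%, where 38.5% of all genes were higher and 39.3% lower. The median log2 fold change of the members was 0.15 with siZIP7_1 and 0.51 with siZIP7_2, beside -0.01 and -0.00 over all genes tested. Single members ranged from -2.02 to 3.40 with siZIP7_1 and from -1.84 to 2.26 with siZIP7_2. Set against each other directly, siZIP7_2 exceeded siZIP7_1 in 119 members (53.6%) and fell under it in 42 (18.9%), with a background of 38.1% and 40.6% of all genes. The median difference was 0.29 on the log2 scale. Against a 1.5-fold change in that comparison, 55 members (24.8%) were higher and 10 (4.50%) lower, where 20.8% and 19.8% of all genes were.

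Both comparisons use the siNC libraries as their control. In all, 75 members were higher with both siRNAs (33.8%, beside 17.7% of all genes), 13 were lower with both (5.86%, beside 20.8%) and 30 went in opposite directions (13.5%, beside 18.7%). Of those 30, 24 were lower with siZIP7_1 and higher with siZIP7_2, and 6 the reverse. Over all 16761 genes these numbers were 1564 and 1576. Neither siRNA gave a call for 23 members (10.4%, beside 8.79% of all genes). Against a change of 1.5-fold (glmTreat), 24 members (10.8%) were higher and 11 (4.95%) lower with siZIP7_1. Over all genes, 13.9% were higher and 13.8% lower, so both shares of the members lay under those of all genes. With siZIP7_2, 75 members (33.8%) were higher and 9 (4.05%) lower, where 20.0% and 18.3% of all genes were.

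Other sets of genes had smaller medians than the members with both siRNAs. Of 209 ZNF genes on other chromosomes, siZIP7_1 gave 76 higher and 67 lower (36.4% and 32.1%), with a median of 0.05 on the log2 scale. With siZIP7_2, 106 were higher and 60 lower (50.7% and 28.7%), with a median of 0.17. The ones among them with under 50% GC had larger medians, given below. The other 782 protein-coding genes of chromosome 19 had medians of 0.05 and -0.04, the latter turning to 0.06 with upper-quartile scaling, and the 90 protein-coding genes that lie inside the ZNF clusters but carry other names had medians of 0.06 and 0.26, with 42 of 90 higher and 28 lower with siZIP7_2. These sets were split by symbol alone. Zinc finger genes with other symbols, such as ZNF with a number and a letter, were not taken out of the 782 or the 90. Neither set is thus free of zinc finger genes. No test of these differences between sets of genes was made.

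The members with a KRAB pattern and those without it stood apart in every siZIP7_2 library. Of the 188 tested members with the pattern, 80 were higher and 32 lower with siZIP7_1, and 135 were higher and 17 lower with siZIP7_2, with medians of 0.17 and 0.54 on the log2 scale. Of the 34 without it, 12 were higher and 14 lower with siZIP7_1 (35.3% and 41.2%, beside 34.8% and 35.9% of all genes). With siZIP7_2, 13 of them were higher and 14 lower (38.2% and 41.2%, beside 38.5% and 39.3% of all genes). Their medians of 0.03 and -0.01 lay near 0 and changed sign between scalings, from -0.01 to 0.12 with siZIP7_1 and from -0.07 to 0.10 with siZIP7_2, while those of the KRAB members stayed between 0.17 and 0.26 and between 0.54 and 0.68. The summed level of the KRAB members was 1933 ± 82.8 CPM in siNC, 2138 ± 46.7 in siZIP7_1 and 2828 ± 56.4 in siZIP7_2 (SD, n = 3). The summed level of the members without the pattern was 1101 ± 6.31, 1055 ± 4.15 and 1162 ± 24.5 CPM.

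Base composition went along with this split. GC content was taken from the longest transcript of each gene, and its median was 42.3% over the members, against 48.4% over all genes tested. The 193 members under 50% GC had medians of 0.20 and 0.55, with 138 higher and 16 lower with siZIP7_2, and the 29 at 50% or more had medians of -0.05 and -0.15, with 10 higher and 15 lower; the former stayed positive under every scaling, and the latter became 0.04 with siZIP7_1 when libraries were scaled by size alone. Among members without the KRAB pattern, the 13 under 50% GC had medians of 0.22 and 0.48, and the 21 at 50% or more had medians of -0.05 and -0.35, the former turning to 0.04 with library size alone. The 8 KRAB members at 50% GC or more had medians of -0.07 and 0.35, the former turning to 0.02 with library size alone and to 0.08 with offsets for GC content and length. Over all 9243 tested genes under 50% GC the medians were -0.01 and -0.05, with 36.3% higher and 41.1% lower with siZIP7_2. The 135 ZNF genes on other chromosomes under 50% GC had medians of 0.10 and 0.31, with 57.0% higher and 22.2% lower with siZIP7_2. The other 53 protein-coding genes of chromosome 19 under 50% GC had medians of 0.11 and -0.002, the latter changing sign between scalings. With offsets for GC content and length the median over members was 0.20 with siZIP7_1 and 0.60 with siZIP7_2. The split at 50% was chosen after the values were seen. Members with 15 or more fingers had medians of 0.28 and 0.58, those with 10 to 14 fingers 0.08 and 0.51, and those with 9 or fewer 0.18 and 0.29. Across the 222 members, Spearman's rho of the log2 fold change with the number of fingers was 0.12 with siZIP7_1 and 0.15 with siZIP7_2. With GC content it was -0.08 and -0.24. Within the 188 KRAB members the rho with GC content was -0.03 and -0.09; the genes share their libraries and are not independent.

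Ordered by position and split at gaps over 1 Mb, 211 of the 222 tested members fell into 8 clusters of 5 or more. Clusters 1 to 3 lie on the short arm at chr19:7069444-9793180, chr19:11483427-12640098 and chr19:19668796-24129961. Clusters 4 to 8 lie on the long arm at chr19:34677639-34964049, chr19:36182060-37817300, chr19:43525497-45076588, chr19:51571298-53580269 and chr19:55476332-58481230. Every cluster had a positive median with siZIP7_2, and the medians on the log2 scale were 0.31, 0.58 and 0.28 in clusters 1 to 3 and 1.04, 0.79, 0.84, 0.77 and 0.37 in clusters 4 to 8. The 3 siZIP7_2 libraries lay above the 3 siNC libraries in all 8 clusters. With siZIP7_1 the medians were 0.05, 0.31, 0.19, 0.08, 0.04, 0.27, 0.39 and 0.05 in the same order.

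**Figure D2:**
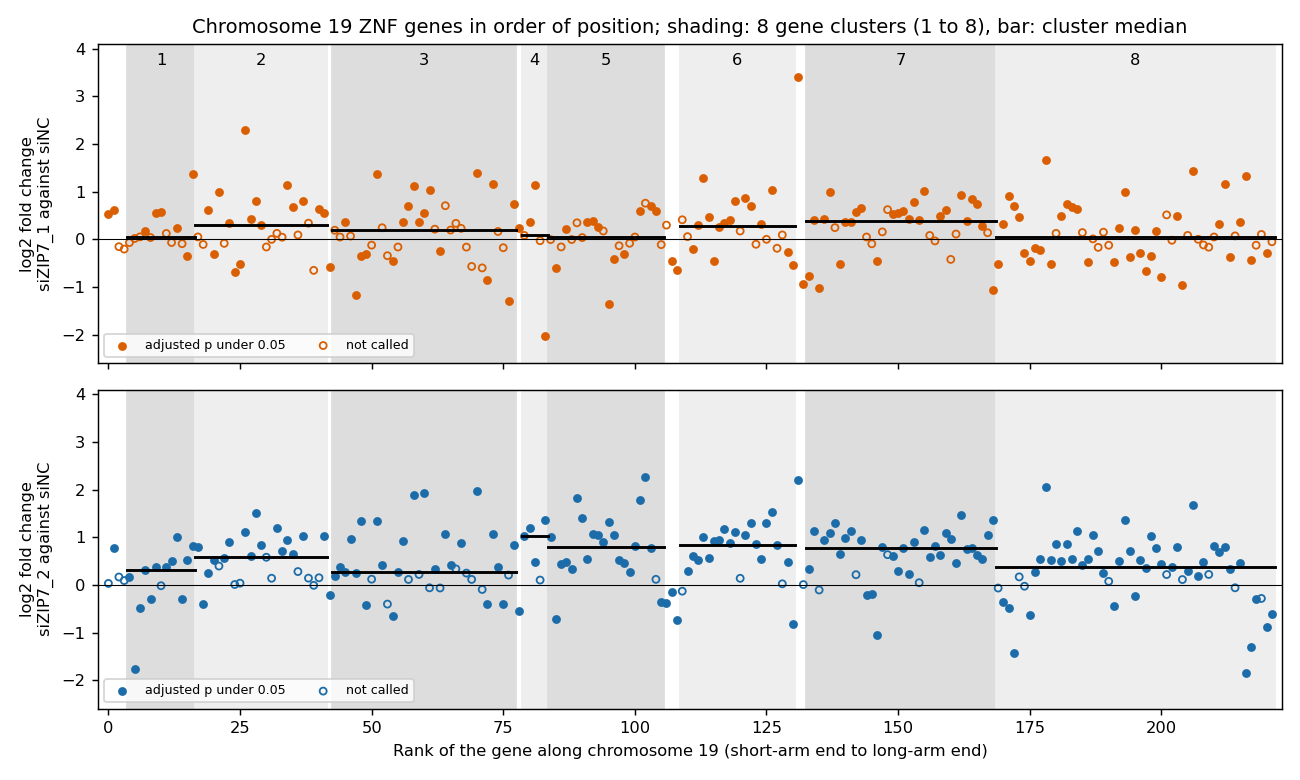
Each point is 1 tested member in order of position along chromosome 19, with the log2 fold change against siNC on the y axis, for siZIP7_1 above and siZIP7_2 below; filled points had an adjusted p under 0.05, shading marks the 8 clusters and the bars their medians. The bars with siZIP7_2 run from 0.28 in cluster 3 to 1.04 in cluster 4, and single genes spread widely around them in every cluster.

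The siZIP7_2 shift was found on both arms, and the counts of calls followed it. Over all genes tested, 38.5% were higher and 39.3% lower with siZIP7_2, and 34.8% and 35.9% with siZIP7_1. In cluster 5, 19 of 22 members were higher with siZIP7_2 and 2 lower; in cluster 6, 18 of 22 and 1; and in cluster 7, 29 of 36 and 3. Cluster 3, next to the centromere, had 20 of 35 higher and 4 lower, and cluster 1 had 8 of 13 higher and 4 lower. Cluster 7 had the highest share of members that were higher with siZIP7_1, with 21 of 36 higher and 5 lower, and 19 of its members were higher with both siRNAs. Cluster 8, at the end of the long arm, held 53 tested members. There siZIP7_2 gave 33 higher and 11 lower (62.3% and 20.8%). With siZIP7_1, 19 were higher and 17 lower (35.8% and 32.1%), near the shares of all genes. Of the 30 members that went in opposite directions, 15 lay in cluster 8. They were 28.3% of its tested members, beside 13.5% of all tested members and 18.7% of all genes. The 11 members outside the 8 clusters had 2 higher and 5 lower with siZIP7_2.

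The medians with siZIP7_1 rested partly on single libraries. That of cluster 2 became 0.13 without siNC replicate 1 and 0.09 without siZIP7_1 replicate 1, that of cluster 3 became 0.12 without siNC replicate 1, and that of cluster 4, with 5 members, became -0.04 without siNC replicate 2 and 0.20 without siNC replicate 3. Those of clusters 1, 5 and 8 lay within 0.002 and 0.116 whichever library was left out. Neighbouring members of a cluster differed by a median of 0.45 with siZIP7_1 and 0.51 with siZIP7_2 on the log2 scale over 203 pairs, and all 3453 pairs within clusters by 0.51 and 0.56. Being neighbours thus went with only slightly closer values, and no test of this was made.

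**Figure D3:**
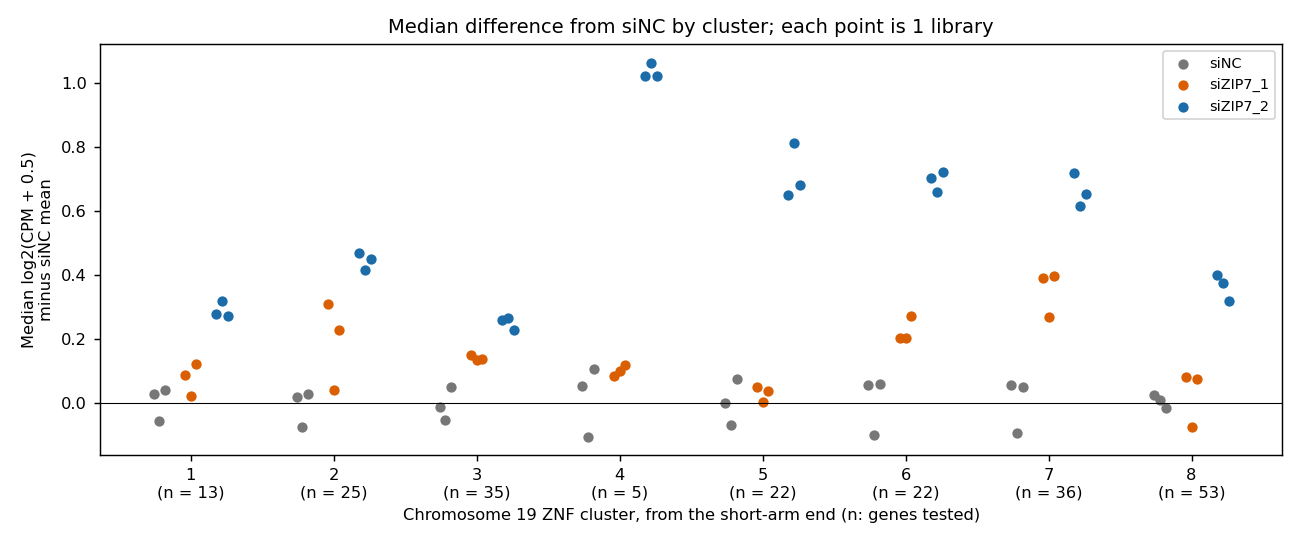
Each point is the median log2(CPM + 0.5) minus the siNC mean over the tested members of a cluster in 1 library, with clusters 1 to 8 on the x axis and colours for the 3 groups. The siZIP7_2 libraries stand above the siNC libraries in each cluster, from 0.226 to 0.265 in cluster 3 and from 1.02 to 1.06 in cluster 4, while the siZIP7_1 libraries overlap those of siNC in clusters 1, 4, 5 and 8.

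Among the members that rose with both siRNAs, the highest mean change was that of ZNF114, at chr19:48270102-48287608 outside the 8 clusters, which encodes a KRAB protein with only 3 fingers. Its level was 3.81, 3.91 and 4.16 CPM in siNC, 40.9, 44.2 and 40.6 CPM in siZIP7_1 and 17.5, 19.4 and 18.0 CPM in siZIP7_2. The groups did not overlap, and siZIP7_1 was the highest. The log2 fold change was 3.40 ± 0.08 (SE) with siZIP7_1 (edgeR adjusted p = 3.92e-24) and 2.21 ± 0.09 with siZIP7_2 (edgeR adjusted p = 5.81e-19), and siZIP7_2 lay 1.19 under siZIP7_1 (edgeR adjusted p = 3.95e-16).

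ZNF91, whose protein is known to silence SVA retrotransposons, rose in the same way with both siRNAs. It was at 14.2, 10.4 and 13.8 CPM in siNC, 28.7, 28.5 and 29.6 in siZIP7_1 and 26.8, 28.0 and 26.4 in siZIP7_2. All 6 knockdown libraries lay above the siNC libraries, with log2 fold changes of 1.164 ± 0.08 and 1.07 ± 0.08 (SE). The siRNAs differed by -0.10 ± 0.07 (edgeR adjusted p = 0.237).

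ZNF708 and ZNF737, KRAB genes of the same cluster as ZNF91, were also higher with both. ZNF708 was at 3.82 to 4.98 CPM in siNC, 8.72 to 9.65 in siZIP7_1 and 14.6 to 16.5 in siZIP7_2, a log2 fold change of 1.11 and 1.89. ZNF737 was at 1.59 to 2.29 CPM in siNC, 4.77 to 5.30 in siZIP7_1 and 4.44 to 5.82 in siZIP7_2, a log2 fold change of 1.36 and 1.34. Neither gene's knockdown libraries reached down to siNC. ZNF814, on the long arm, rose by 1.44 and 1.69, and ZNF235 by 1.03 and 1.54, also on the log2 scale. Of their exonic bases, 24.5% and 23.3% lie in exons of other genes. The counting set 2.66% to 2.91% of the reads of a library apart as ambiguous between genes, and its strand setting was not given. Reads in the overlaps may thus be missing from these counts, and how they were treated for single genes is not known. ZNF224, which encodes a KRAB repressor of the aldolase A gene, rose from 21.04 ± 2.26 CPM in siNC to 38.7 ± 4.84 and 43.7 ± 4.28 (SD, n = 3), and 40.5% of its exonic bases overlap other genes.

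Fewer members fell with both siRNAs, and 6 of those 13 carried no KRAB pattern. These 6 were 17.6% of the 34 tested members without the pattern, a share under the 20.8% of all genes. Of the 188 KRAB members, 3.72% were lower with both. ZNF146, a protein made almost wholly of fingers that is known to be overexpressed in several carcinomas, had the highest level per length of all members in siNC, 44.95 RPKM (CPM divided by the exonic length in kilobases). It was at 191, 177 and 192 CPM in siNC, 118, 129 and 119.9 in siZIP7_1 and 111, 116 and 112 in siZIP7_2, and fell by 0.61 and 0.72 on the log2 scale with SE of 0.05 each. No knockdown library reached the siNC range.

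ZNF526 fell by 0.64 and 0.74 on the log2 scale, ZNF296 by 0.54 and 0.83, ZNF880 by 0.45 and 1.05, and ZNF837 by 0.43 and 1.30. ZNF837 was at 4.21 to 4.90 CPM in siNC, 3.44 to 3.50 in siZIP7_1 and 1.65 to 2.14 in siZIP7_2. Of these, ZNF526, ZNF296 and ZNF837 carry no KRAB pattern and have 57.8%, 68.1% and 70.1% GC in their longest transcripts. ZNF880 is a KRAB gene of 39.96% GC and lay in cluster 7, where most members were higher. ZNF574, near ZNF526, fell by 0.46 with siZIP7_1 and lay 0.15 lower with siZIP7_2 (edgeR adjusted p = 0.0164). That call was lost without siNC replicate 1 (edgeR adjusted p = 0.0707), siZIP7_2 replicate 1 (edgeR adjusted p = 0.0739) or siZIP7_2 replicate 3 (edgeR adjusted p = 0.0519). It was also lost with DESeq2 (adjusted p = 0.0867) and in edgeR with DESeq2's size factors (adjusted p = 0.0619), library size alone (adjusted p = 0.0507), at least 10 counts in every library (adjusted p = 0.210) and upper-quartile scaling (adjusted p = 0.484), where the value was -0.04.

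Several members went in opposite directions by large amounts. ZNF792, the last gene of cluster 4, was at 20.3, 21.1 and 20.6 CPM in siNC, 4.99, 4.43 and 5.77 in siZIP7_1 and 50.7, 53.8 and 55.5 in siZIP7_2. The groups stood far apart, siZIP7_1 lowest and siZIP7_2 highest, with log2 fold changes of -2.02 ± 0.09 and 1.37 ± 0.07 (SE). ZNF331, an imprinted KRAB gene at the end of cluster 7, was at 22.6, 20.5 and 22.9 CPM in siNC, 10.5, 10.2 and 11.1 in siZIP7_1 and 57.7, 58.2 and 53.2 in siZIP7_2, and had the same order. ZNF829 in cluster 5 fell by 1.35 and rose by 1.32 on the log2 scale, from 8.90 ± 0.694 CPM in siNC to 3.49 ± 0.465 with siZIP7_1 and 22.3 ± 1.27 with siZIP7_2 (SD, n = 3).

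The reverse order was seen in 6 of the 222 tested members, beside 1576 of all 16761 genes. Of these 6 members, 5 were among the 53 tested in cluster 8, and 5 were among the 34 without a KRAB pattern. ZNF865, whose GC-rich finger and promoter are printed above, was at 48.5, 51.6 and 49.6 CPM in siNC, 81.8, 85.9 and 75.9 in siZIP7_1 and 18.9, 19.2 and 17.1 in siZIP7_2. It was highest with siZIP7_1 and lowest with siZIP7_2, with log2 fold changes of 0.70 ± 0.06 and -1.44 ± 0.06 (SE). ZNF524, its neighbour at chr19:55600022-55603138, rose by 0.91 with siZIP7_1 and fell by 0.49 with siZIP7_2 on the log2 scale. ZNF497 rose by 1.33 and fell by 1.84, at 1.42 to 1.78 CPM in siNC, 3.85 to 4.59 in siZIP7_1 and 0.395 to 0.505 in siZIP7_2, but 45.3% of its exonic bases overlap other genes.

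**Figure D4:**
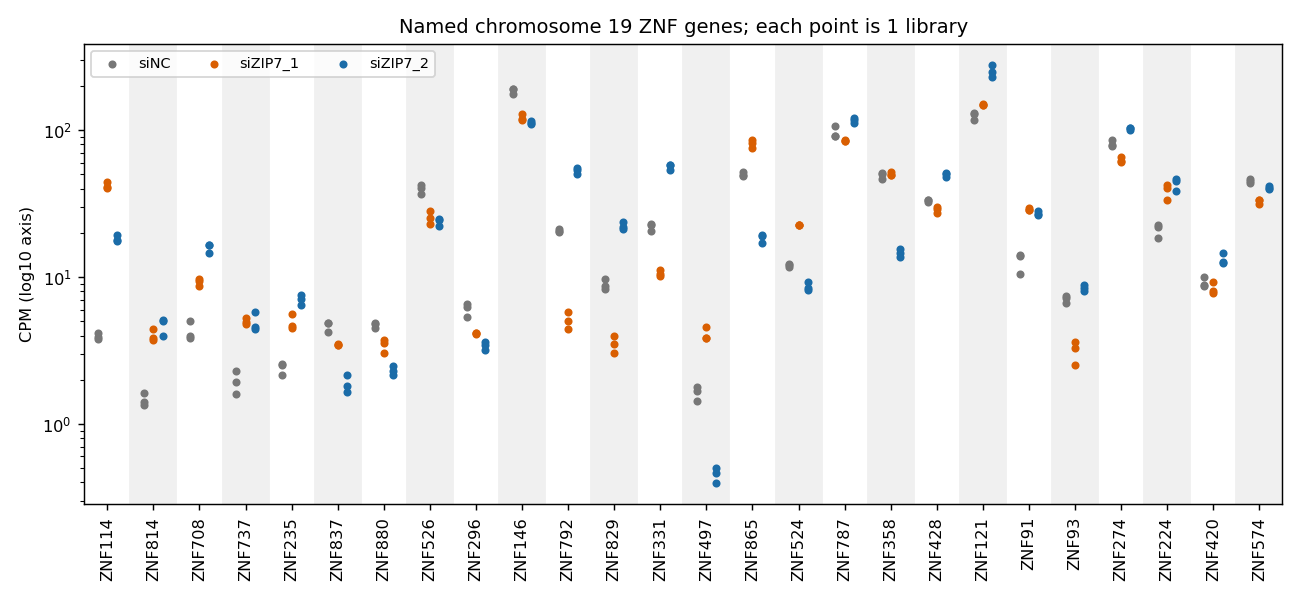
CPM on a log10 axis in each of the 9 libraries for 26 named members, coloured by group. ZNF114 rises from about 3.96 CPM in siNC to 41.9 and 18.3 CPM, ZNF146 falls with both siRNAs, and ZNF792, ZNF829 and ZNF331 have siZIP7_1 lowest and siZIP7_2 highest, while ZNF865, ZNF524 and ZNF497 have the reverse order.

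The genes whose promoters share the 15-base word did not move as one. Of the 16, 6 were higher and 4 lower with siZIP7_1, from -1.28 to 1.36 on the log2 scale. With siZIP7_2, 9 were higher and 3 lower, with a median of 0.32. Of all genes tested, 34.8% were higher and 35.9% lower with siZIP7_1, and 38.5% and 39.3% with siZIP7_2. ZNF93, whose protein is known to repress L1 retrotransposons, was at 7.48, 6.66 and 7.16 CPM in siNC, 2.51, 3.26 and 3.64 in siZIP7_1 and 8.38, 8.09 and 8.80 in siZIP7_2. It fell by 1.17 ± 0.12 (SE) with siZIP7_1, whereas ZNF91 and ZNF737 rose. With siZIP7_2 it lay 0.24 higher (edgeR adjusted p = 0.0411), a call that was lost without siNC replicate 2 (adjusted p = 0.127), siNC replicate 3 (adjusted p = 0.0677), siZIP7_2 replicate 1 (adjusted p = 0.0574) or siZIP7_2 replicate 3 (adjusted p = 0.108) and with no filter on low counts (adjusted p = 0.163), all in edgeR. ZNF726, printed above and chosen after its values were seen, fell by 1.28 with siZIP7_1 and was at 6.16 ± 0.304 CPM with siZIP7_2, beside 5.36 ± 0.615 in siNC (SD, n = 3), a difference that did not pass the test (edgeR adjusted p = 0.113).

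Other letters in the promoters were counted on both strands of the 250 bases. CCGGAAG, the core of many ETS factor sites, was in 64 of the 198 member promoters, or 32.3%, and in 8.52% of all 35116 promoters. The 35116 were not limited to protein-coding or expressed genes, as the members were, and had a median of 11 CpG beside 16. The shares given here thus come from unlike sets. The tested members with it had medians of 0.13 and 0.53, and those without it 0.13 and 0.48, on the log2 scale. CCAAT was in 51.0% of member promoters and 32.0% of all. The endoplasmic reticulum stress element (ERSE) and the unfolded protein response letters TGACGTG were in 1 member promoter each, where the whole table had them in 0.0740% and 1.68%, and TGATGNAA, the letters bound by ATF4 with C/EBP partners, was in 3, or 1.52%, against 3.14% of all. CCAAT also opens the ERSE, so these counts overlap.

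The other 4 members among the 5 with the highest level per length in siNC moved in different ways. ZNF787 was at 26.2 RPKM, ZNF358 at 23.9, ZNF428 at 18.3 and ZNF121 at 17.4, with no KRAB pattern in any of them, against a median of 1.45 RPKM over the members and 3.55 RPKM over all genes tested. ZNF121 rose from 127 ± 7.48 CPM in siNC to 149 ± 0.785 with siZIP7_1 and 253 ± 23.8 with siZIP7_2 (SD, n = 3), a log2 fold change of 0.24 and 1.00. ZNF358, in cluster 1, was at 46.8, 50.3 and 51.4 CPM in siNC, 51.5, 49.5 and 49.4 in siZIP7_1 and 14.6, 13.7 and 15.5 in siZIP7_2, and fell by 1.77 ± 0.06 (SE) on the log2 scale with siZIP7_2. With siZIP7_1 it lay at 0.02 and was not called, but with offsets for GC content and length it was called lower there too, at -0.19 (edgeR adjusted p = 0.00239); the siRNAs differed by 1.79 in the same direction (edgeR adjusted p = 1.23e-20). Other genes overlap 34.4% of its exonic bases. ZNF787 and ZNF428 were lower by 0.18 and 0.20 with siZIP7_1 and higher by 0.28 and 0.60 with siZIP7_2 on the log2 scale; without siNC replicate 2 the first call of ZNF787 was lost (edgeR adjusted p = 0.0933), and the siZIP7_1 calls of both genes were lost when libraries were scaled by size alone.

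ZNF274 binds the finger-coding ends of other ZNF genes and recruits SETDB1 to them, so its own level was of interest beside theirs. It was at 85.6, 78.3 and 79.3 CPM in siNC, 65.6, 60.6 and 62.0 in siZIP7_1 and 104, 104 and 99.8 in siZIP7_2. It fell by 0.37 ± 0.05 with siZIP7_1 and rose by 0.34 ± 0.05 with siZIP7_2 (SE), and the groups did not overlap. ZNF420, a KRAB repressor known to bind p53, was at 8.68 to 9.97 CPM in siNC, 7.83 to 9.21 in siZIP7_1, where the test did not call it (edgeR adjusted p = 0.222), and 12.5 to 14.6 in siZIP7_2, a rise of 0.53 on the log2 scale.

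A list of 24 genes was looked at beside the members. It holds the silencing machinery that KRAB proteins recruit, its partners and other chromatin genes such as KDM4A. Most of the list was lower with both siRNAs. Of the 24, 3 were higher and 17 lower with siZIP7_1, 4 were higher and 15 lower with siZIP7_2, and 13 were lower with both. The median log2 fold changes were -0.31 and -0.37. Over all genes tested, 35.9% were lower with siZIP7_1, 39.3% with siZIP7_2 and 20.8% with both. TRIM28, which binds the KRAB box, was at 620, 665 and 597 CPM in siNC, 499, 492 and 478 in siZIP7_1 and 457, 509 and 497 in siZIP7_2, and fell by 0.36 ± 0.05 (SE) with each. All 6 knockdown libraries lay under the siNC range. SETDB1, the methyltransferase that TRIM28 brings in, fell by 0.19 with siZIP7_1 and by 0.48 with siZIP7_2. The siZIP7_1 call was lost in edgeR without siNC replicate 1 (adjusted p = 0.0665), with offsets for GC content and length (-0.09, adjusted p = 0.152) and with library size alone (-0.11, adjusted p = 0.125).

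CBX5, which encodes the heterochromatin protein HP1 alpha, fell most of the 24 with siZIP7_1: it was at 223, 233 and 224 CPM in siNC, 33.3, 30.7 and 33.7 in siZIP7_1 and 92.9, 97.3 and 104 in siZIP7_2, a log2 fold change of -2.80 ± 0.05 and -1.21 ± 0.05 (SE). Besides TRIM28 and SETDB1, the genes named here were chosen after their values were seen. UHRF1 and DNMT1, which maintain DNA methylation, fell by 1.02 and 2.07 and by 0.89 and 0.68 on the log2 scale. MORC2 and FAM208A (TASOR), which act with the HUSH silencing complex, fell by 0.27 and 1.41 and by 0.37 and 0.81, while MPHOSPH8, the HUSH chromodomain protein, rose by 0.44 with siZIP7_2. ATRX rose by 0.66 with siZIP7_2, and CHD3 fell by 0.68 with siZIP7_1 and rose by 0.51 with siZIP7_2. Whether the levels of these genes bear on those of the ZNF genes was not tested.

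**Figure D5:**
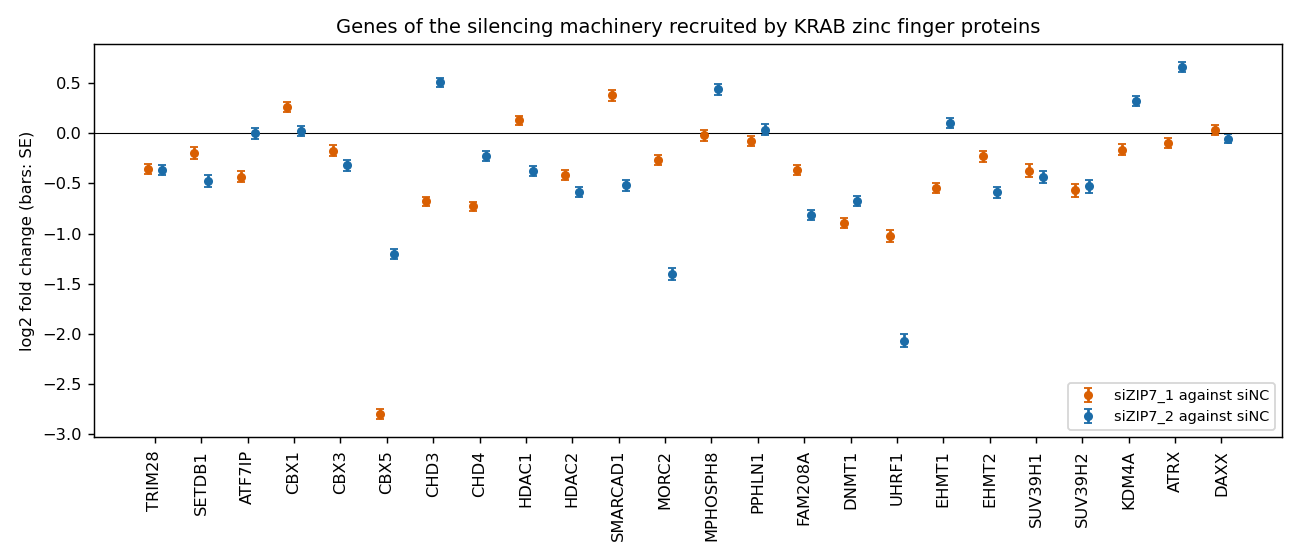
Log2 fold change against siNC with its SE for the 24 listed genes of the silencing machinery, its partners and other chromatin genes, with siZIP7_1 and siZIP7_2 side by side. Most points lie under 0, CBX5 at -2.80 with siZIP7_1 and UHRF1 at -2.07 with siZIP7_2 being the lowest, and the 4 genes that rose with siZIP7_2, CHD3, MPHOSPH8, KDM4A and ATRX, lie highest with that siRNA.

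Some members were near the limit of detection. The minimum of 10 counts was reached in all 9 libraries by 208 members and in 3 to 8 libraries by 17, and 6 members reached it in no siNC library and so were members through the knockdown groups. Among these 6, chosen here after their values were seen, ZNF763 had 6, 9 and 6 counts in siNC, 36, 35 and 46 in siZIP7_1 and 12, 16 and 20 in siZIP7_2. ZNF582 had 7, 6 and 2 counts in siNC, 16, 17 and 21 in siZIP7_1 and 23, 21 and 22 in siZIP7_2. Membership through the knockdown libraries fixed the direction of these values. ZNF540, the member with the highest log2 fold change with siZIP7_2, 2.26 ± 0.35 (SE), had 7, 5 and 10 counts in siNC and 28, 35 and 48 in siZIP7_2. Of the 3 members outside the test, ZNF99 had 1 to 17 counts, ZNF610 1 to 16 and ZNF135 2 to 11. Just under the count minimum stood ZNF233, with 10 counts in 1 library, and ZNF729, with at most 9.

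Duplicated genes can share reads, which bears on members of the same cluster. In 57 members over 10% of the 50-base windows of the longest coding transcript were found in transcripts of other genes, and in 10 members over 50% were; the median was 1.90%. Among the 166 tested members with at most 10% of shared windows, 68 were higher and 41 lower with siZIP7_1 (41.0% and 24.7%). With siZIP7_2, 112 of them were higher and 27 lower (67.5% and 16.3%). Their medians were 0.12 and 0.48.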

How the data were processed

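RNA from 3 libraries each of siNC, siZIP7_1 and siZIP7_2 cells was sequenced in single reads on an Illumina HiSeq. The deposited tables hold whole-number counts per Ensembl gene, which the authors made from the reads and left unnormalised; the submitters' processing notes name Trim Galore 0.4.1, FastQC 0.11.2, STAR, HTSeq 0.6.1 and DESeq2 1.16.1, while genome build and strand setting are not given in the sources used here. Of 58395 identifiers, 58275 matched GENCODE 29 (GRCh38), used here for names and positions. Rows for reads outside genes were left out. The main test was edgeR 4.0.16 (R 4.3.3): TMM scaling, filterByExpr, 1 quasi-likelihood fit of all 9 libraries, Benjamini-Hochberg adjustment over 16761 genes and a threshold of 0.05. Levels are CPM on TMM library sizes, and library differences use log2(CPM + 0.5). The members and lists were chosen with earlier results of these data known. The text names, where the average over libraries reached 1 CPM, the 5 highest and 5 lowest by the mean of both log2 fold changes among members called one way with both siRNAs, the 3 most positive and 3 most negative in siZIP7_2 minus siZIP7_1 among those called in opposite directions, the 5 highest in siNC RPKM, and ZNF91, ZNF93, ZNF274, ZNF224, ZNF420, ZNF331, ZNF146, ZNF574, TRIM28, SETDB1 and SLC39A7. A KRAB pattern was at least 6 of the 8 fixed letters of the KRAB A-box in the first 250 residues of the longest translated transcript, and a finger was C2H2 spacing in the same protein. The test was checked on simulated counts for 15505 genes, of which 181 were changed. With siZIP7_1 and siZIP7_2 it recovered 83.0% and 81.8% of changes of 0.75 on the log2 scale, and 4.09% and 6.94% of its calls were false. In the real data far more genes were called, 34.8% higher and 35.9% lower with siZIP7_1, so these rates cannot be carried over to them.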

Additional observations from a re-analysis of the deposited data

Results flagged for a closer look

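For 10 named members the siRNAs gave calls in opposite directions. They were chosen for those calls, and 6 of them for the size of the difference between the siRNAs, so the differences are given as a description. On the log2 scale siZIP7_2 lay above siZIP7_1 by 3.39 in ZNF792, 2.67 in ZNF829, 2.41 in ZNF331, 1.41 in ZNF93, 0.80 in ZNF428, 0.71 in ZNF274 and 0.46 in ZNF787. The difference was -3.17 in ZNF497, -2.14 in ZNF865 and -1.40 in ZNF524, where siZIP7_2 lay below. The targeted gene itself was lower with siZIP7_2 than with siZIP7_1, by 0.89 on the log2 scale; what each siRNA did beyond its target was not tested.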

How the results depend on the processing

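Direction and side of the threshold were kept in 1023 of the comparisons of named genes with alternatives, 19 lost their call and 2 changed sign. The sign changes were in ZNF358 with siZIP7_1, whose main value of 0.02 did not pass the test: -0.19 with offsets for GC content and length (edgeR adjusted p = 0.00239) and -0.024 without siNC replicate 1, the highest value on leaving out a library being 0.057. The calls lost belonged to ZNF574 and ZNF93 with siZIP7_2 and to SETDB1, ZNF787 and ZNF428 with siZIP7_1. The family median over members kept its sign under every alternative run. Upper-quartile scaling moved the median of all genes to 0.10 with siZIP7_2, and scaling by library size alone moved it to 0.08 with siZIP7_1; the members' medians then were 0.61 and 0.24. The causes of the changes below were not tested.

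All values are median log2 fold changes unless called counts. With GC and length offsets the members' median was 0.60 with siZIP7_2 and 0.42 for siZIP7_2 against siZIP7_1, that of cluster 1 was 0.15 with siZIP7_1, and those of clusters 1, 2, 3, 4, 5, 7 and 8 were 0.39, 0.73, 0.53, 1.28, 1.03, 0.89 and 0.46 with siZIP7_2. With upper-quartile scaling the members stood at 0.37 for siZIP7_2 against siZIP7_1, and clusters 1, 2, 3, 6, 7 and 8 at 0.42, 0.69, 0.38, 0.95, 0.87 and 0.47 with siZIP7_2. With library size alone the members stood at 0.24 for siZIP7_2 against siZIP7_1, and clusters 1, 3 and 5 at 0.14, 0.28 and 0.13 with siZIP7_1. With at least 10 counts in every library clusters 1, 2, 3 and 8 stood at 0.39, 0.68, 0.35 and 0.44 with siZIP7_2. With no filter on low counts the members stood at 0.23 for siZIP7_2 against siZIP7_1 and cluster 8 at 0.31 with siZIP7_2. Splitting clusters at 0.5 Mb gave 0.37 for cluster 1 and 0.43 for cluster 8 with siZIP7_2. Splitting at 2 Mb joined clusters: with siZIP7_2 clusters 1 and 2 became 0.45, cluster 4 became 0.81, cluster 6 became 0.71 and clusters 7 and 8 became 0.53, and with siZIP7_1 cluster 2 became 0.12 and clusters 7 and 8 became 0.15.

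Against a 1.5-fold change the counts of members were 24 higher and 11 lower with siZIP7_1, 75 and 9 with siZIP7_2, 55 and 10 for siZIP7_2 against siZIP7_1, 16 higher and 0 lower with both and 5 in opposite directions; that test (glmTreat) asks for larger changes by construction, and the 0 stands beside 13 at the usual threshold. Among the 167 tested members with at most 10% of their exonic bases in other genes, 20 were lower with siZIP7_2, 7 were lower with both, and the median for siZIP7_2 against siZIP7_1 was 0.34. The limit of 10% on shared windows was added after the data were seen.

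Leaving out 1 library at a time, the members' medians ran from 0.13 to 0.17 with siZIP7_1, from 0.47 to 0.53 with siZIP7_2 and from 0.27 to 0.32 for siZIP7_2 against siZIP7_1. The counts ran from 81 to 97 higher and 40 to 46 lower with siZIP7_1, from 139 to 148 and 24 to 31 with siZIP7_2, from 109 to 117 and 36 to 42 between the siRNAs, from 61 to 78 higher and 10 to 13 lower with both, and from 23 to 30 in opposite directions. Clusters 1 to 8 ran in order from 0.05 to 0.12, 0.089 to 0.394, 0.12 to 0.26, -0.035 to 0.204, 0.05 to 0.12, 0.22 to 0.32, 0.34 to 0.43 and 0.002 to 0.081 with siZIP7_1, and from 0.28 to 0.34, 0.50 to 0.65, 0.27 to 0.33, 0.91 to 1.15, 0.74 to 0.85, 0.70 to 0.92, 0.70 to 0.79 and 0.36 to 0.43 with siZIP7_2. The median of cluster 4 changed sign with siZIP7_1, to -0.035, without siNC replicate 2.

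The groups share replicate numbers. Deviations of same-numbered libraries from their group means correlated between -0.124 and 0.131, and those of libraries with different numbers between -0.252 and 0.195. These values show no sign of pairing by number, but with 3 libraries per group they cannot exclude it. With the replicate block the counts were 96 higher and 47 lower with siZIP7_1, 148 and 31 with siZIP7_2 and 119 and 42 between the siRNAs, 78 were higher and 13 lower with both, 30 went in opposite directions, and the medians were 0.16, 0.51 and 0.29.

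Depth limits the members with few counts: 17 had fewer than 10 counts in at least 1 library, and intervals of their changes are wide. Counts without molecular identifiers carry amplification error too. The annotation used here is not known to be the one used for counting, strand was not given, and 56 members overlap other genes by more than 10%.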
